A study of Medicago truncatula with 6 samples.

Results

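A set of 6 wall genes was followed in roots of *Medicago truncatula* with and without inoculation by the fungus *Gongronella* sp. w5. By name, the genes encode proteins that act on pectin or cellulose, inhibit polygalacturonase or loosen the wall. They were the polygalacturonase gene Medtr6g005630, the pectin lyase superfamily gene Medtr4g094715, the polygalacturonase inhibitor gene Medtr7g023690, the glycosyl hydrolase family 9 gene Medtr3g080810, the endo-1,4-beta-glucanase gene Medtr5g009970 and the expansin-B1-like gene Medtr4g098930. The 6 genes were taken by their ID from the 50443 genes of the deposited table, and all 6 were among the 16905 genes that passed edgeR's filter on low counts. They were chosen because they were higher after inoculation in these same libraries, so that difference is given below as a description and is not evidence in itself. Their names are those of the study's annotation, and which polymer each product cleaves was not measured.

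The plants were of the A17 line and grew on agar plates, and each group had 3 biological replicates of root RNA. Inoculated plants shared the plate with w5 mycelium for 16 days, beside a glucose medium for the fungus, while the controls grew alone on the plant medium and were labelled untreated, with no time given. The methods describe the inoculated samples as roots in contact with the mycelium and do not state which part of the control roots was taken, so any difference in the part taken cannot be told apart from inoculation. Whether the control plates also held the glucose medium is not stated. The libraries hold from 6547753 to 7539956 counts and measure bulk root RNA, in which fewer cells of a type and less RNA per cell cannot be told apart. A table of plant genes has no rows for fungal genes, and whether fungal reads were counted under plant genes was not checked. No root marker could be paired with a gene ID, so the root label was not checked against markers.

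The plant primary wall is a network of cellulose fibrils tied by hemicelluloses and set in a gel of pectin. Pectin is secreted with its acid groups esterified, pectin esterases remove the esters, and polygalacturonases and lyases then cut the galacturonan backbone. Polygalacturonase inhibitors are leucine-rich repeat proteins of the wall, best known for binding polygalacturonases that fungi secrete. Plant family 9 glucanases cut beta-1,4-glucan chains, and expansins let wall polymers slip past each other without cutting them. Roots use these proteins when cells expand, separate or admit microbes.

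Levels are given as CPM (counts per 1e+06 TMM-scaled counts of the tested genes), and per gene length as the deposited FPKM. Of the 6 genes, 5 had every inoculated library above every control library, as had 7.02% of all tested genes. In edgeR's quasi-likelihood test all 6 had an unadjusted p under 0.05, as had 4.87% of the tested genes in that direction, and all 6 also had a log2 fold change (log2 FC) over 1, as had 2.03%. None of them (0 of 6) passed a Benjamini-Hochberg adjusted p of 0.05 in that test, and 3 of the 16905 genes (0.0177%) did. With DESeq2 and with edgeR's exact test 5 of the 6 passed, where 1.32% and 1.22% of genes passed as higher, and with limma-voom 0 passed, against 0.0118%. The genes were picked on this contrast, so nothing is read from these counts.

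The polygalacturonase gene Medtr6g005630 lies on chromosome 6 between 863153 and 867302 (plus strand) in the study's annotation, which states no genome build. Its product belongs to the enzymes that hydrolyse the galacturonan backbone of pectin. The gene had 6, 36 and 15 counts in control replicates 1 to 3 and 57, 93 and 84 counts in inoculated replicates 1 to 3. In CPM these were 0.792, 5.05 and 2.16 in the controls and 8.71, 13.7 and 12.8 after inoculation. The groups did not overlap, although the 95% counting intervals of the highest control (25.2 to 49.8 counts) and the lowest inoculated library (43.2 to 73.9 counts) did. Such intervals are exact Poisson intervals and cover counting error only. The mean was 2.67 ± 2.18 CPM in the controls and 11.7 ± 2.65 CPM after inoculation (SD, n = 3 per group). The log2 FC was 2.13, with a standard error of 0.55 and a 95% interval of 0.88 to 3.39. Control replicate 2 carried most of the control signal, and without it the log2 FC was 3.0.

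The pectin lyase superfamily gene Medtr4g094715 lies on chromosome 4 between 38832640 and 38835379 (plus strand). The superfamily takes its name from a shared helical fold and includes polygalacturonases, and the study's annotation gives both pectin genes polygalacturonase activity and a place outside the cell. It was the best measured of the 6, with 2114 counts over the 6 libraries. Its levels were 34.7, 42.7 and 17.9 CPM in the controls and 65.6, 70.5 and 78.5 CPM after inoculation. The inoculated libraries lay close together, while control replicate 3 lay well under the other controls. The means were 31.8 ± 12.7 CPM and 71.5 ± 6.54 CPM (SD, n = 3 per group), and the log2 FC was 1.17 (standard error 0.29), with a 95% interval of 0.52 to 1.82. Without control replicate 3 it was 0.90, which was no longer past the fold threshold.

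The polygalacturonase inhibitor gene Medtr7g023690 lies on chromosome 7 between 7739073 and 7740066 (minus strand). It had 60, 57 and 29 counts in the controls and 219, 111 and 185 counts after inoculation. The counting intervals of the highest control and of the lowest inoculated library did not meet, at 45.8 to 77.2 and 91.3 to 134 counts. In CPM the means were 6.70 ± 2.18 and 26.0 ± 8.81 (SD, n = 3 per group). The log2 FC was 1.95 (standard error 0.35), with a 95% interval of 1.16 to 2.75, and with each library left out it lay between 1.72 and 2.21.

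The family 9 gene Medtr3g080810, on chromosome 3 between 36572815 and 36575499 (minus strand), had 37, 77 and 34 counts in the controls and 158, 151 and 354 counts after inoculation. Its levels were 4.89, 10.8 and 4.90 CPM against 24.2, 22.2 and 54.1 CPM, so inoculated replicate 3 stood far above the other inoculated libraries. The means were 6.87 ± 3.42 and 33.5 ± 17.9 CPM (SD, n = 3 per group). The log2 FC was 2.28 (standard error 0.45), with a 95% interval of 1.26 to 3.31, and it was 1.75 without inoculated replicate 3 and 2.77 without control replicate 2.

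The other beta-1,4-glucanase gene, Medtr5g009970, was the weakest of the 6. It lies on chromosome 5 between 2561843 and 2565277 (plus strand), and the study's annotation gives it, like Medtr3g080810, cellulase activity and a part in cellulose breakdown. It had 11, 15 and 15 counts in the controls and 34, 17 and 45 counts after inoculation. The groups were apart in CPM by a narrow margin, with 2.16 CPM in control replicate 3 and 2.5 CPM in inoculated replicate 2. The counting intervals of these 2 libraries, 8.40 to 24.7 and 9.90 to 27.2 counts, lay almost on each other, so no difference between them was detectable at this depth. The log2 FC of 1.34 (standard error 0.46) had a 95% interval of 0.28 to 2.40. It was not past both thresholds without control replicate 1 (1.19) or without inoculated replicate 3 (1.0).

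The expansin-B1-like gene Medtr4g098930, on chromosome 4 between 40866852 and 40868963 (plus strand), was the only one of the 6 whose groups overlapped. It had 4, 12 and 19 counts in the controls and 71, 85 and 16 counts after inoculation. In CPM, inoculated replicate 3 (2.44) lay under control replicate 3 (2.74), while inoculated replicates 1 and 2 had 10.9 and 12.5. The means were 1.65 ± 1.11 and 8.59 ± 5.39 CPM (SD, n = 3 per group). The log2 FC of 2.38 (standard error 0.70) was the largest of the 6, and its 95% interval of 0.77 to 3.99 the widest. It was 2.96 without control replicate 3 and 2.82 without inoculated replicate 3.

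**Figure D1:**
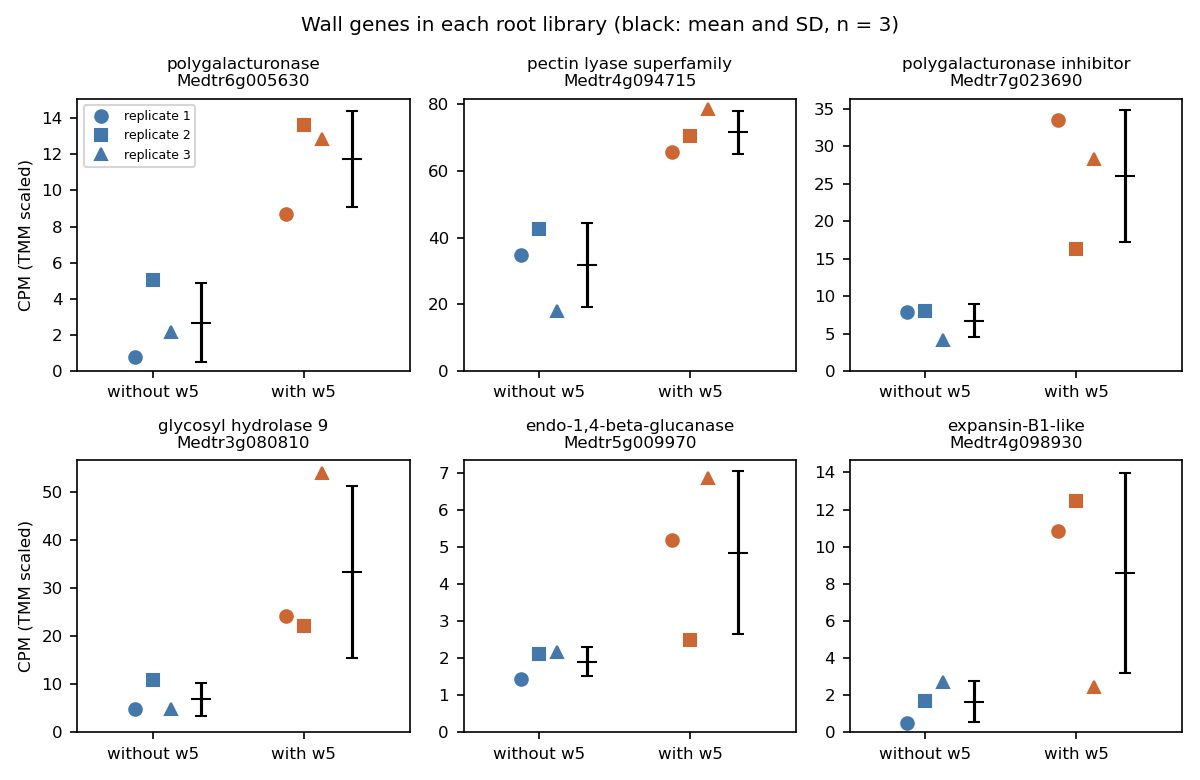
CPM (linear axes) of the 6 wall genes in each library without w5 (blue) and with w5 (orange), where the marker shape gives the replicate number and the black marks give the mean and SD (n = 3). The groups are apart in every panel but that of the expansin-B1-like gene, where inoculated replicate 3 has 2.44 CPM and control replicate 3 has 2.74 CPM.

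The 95% intervals of the 6 log2 FC all held the values from 1.26 to 1.82, and the differences between genes in log2 FC were not tested. The libraries did not order the genes alike within a group. Of the controls, replicate 2 was the highest in 4 of the 6 genes and replicate 1 the lowest in 4. Of the inoculated libraries, replicate 3 was the highest for the pectin lyase superfamily gene and for both beta-1,4-glucanase genes and the lowest for the expansin-B1-like gene. Replicate 2 was the highest for the polygalacturonase and expansin-B1-like genes and the lowest for the inhibitor and both beta-1,4-glucanase genes. The spread of log2 CPM between libraries of one group lay at percentile 73.7 of all tested genes in the pectin lyase superfamily gene, the lowest of the 6, and at percentile 97.6 in the expansin-B1-like gene (SD 1.11). Genes of low count spread more through counting alone, and the part of that was not tested.

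**Figure D2:**
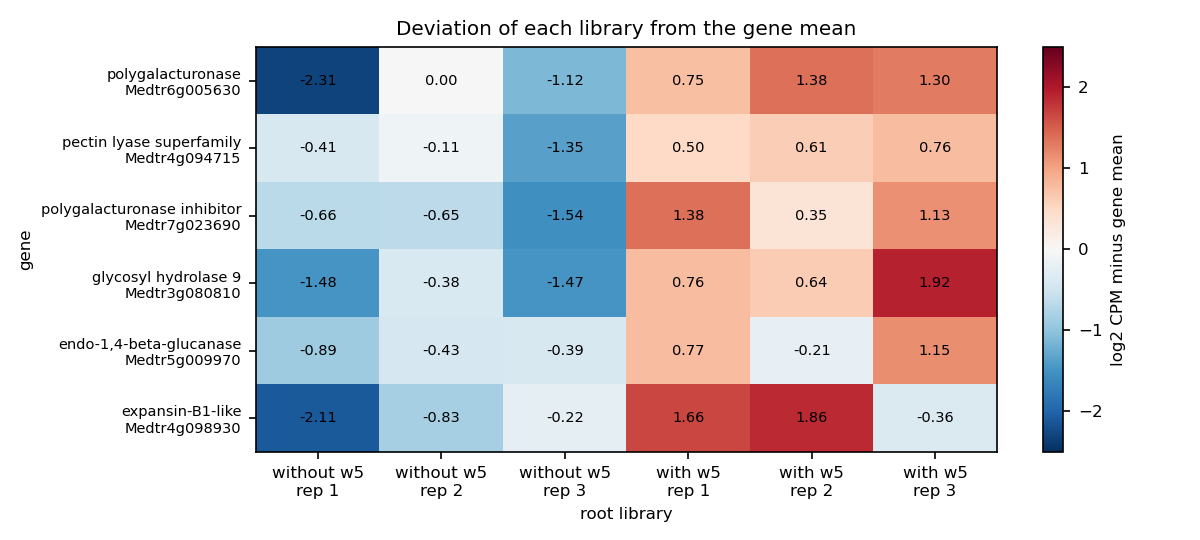
Log2 CPM of each wall gene (rows) in each root library (columns) minus the gene's mean over the 6 libraries, with the value printed in each cell. The column of inoculated replicate 3 holds the highest value of the glycosyl hydrolase 9 row (1.92) and a value under the mean (-0.36) in the expansin-B1-like row.

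Per gene length the 6 genes spanned a wide range of levels. In FPKM, the pectin lyase superfamily gene came first with 17.6 ± 7.11 in the controls and 39.3 ± 3.20 after inoculation, followed by the inhibitor gene with 6.76 ± 2.24 and 26.0 ± 8.80 (SD, n = 3 per group). The family 9 gene Medtr3g080810 had 3.73 ± 1.87 and 17.9 ± 9.37 FPKM, and the weaker glucanase gene Medtr5g009970 had 0.764 ± 0.156 and 1.93 ± 0.861 FPKM. The polygalacturonase gene (1.5 ± 1.23 and 6.53 ± 1.46 FPKM) and the expansin-B1-like gene (1.34 ± 0.892 and 6.98 ± 4.40 FPKM) lay between them. In the controls, the pectin lyase superfamily gene stood apart from its neighbour in this order and the other neighbours overlapped. After inoculation, Medtr3g080810 also stood apart from the expansin-B1-like gene and the polygalacturonase gene from Medtr5g009970, while the inhibitor gene overlapped with Medtr3g080810 and the expansin-B1-like gene with the polygalacturonase gene. By mean FPKM over the 6 libraries, which includes the inoculated levels for which they were chosen, the genes stood between percentile 7.76 (Medtr5g009970) and percentile 75.4 (the pectin lyase superfamily gene) of the tested genes, with Medtr3g080810 at 50.4.

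Of 3 FPKM ratios between genes within a library, 1 had groups that did not overlap. The ratio of the pectin lyase superfamily gene to the polygalacturonase gene was 43.3, 8.34 and 8.16 in the controls and 7.43, 5.10 and 6.04 after inoculation, so every inoculated library lay under every control. The FPKM ratio of the inhibitor gene to the polygalacturonase gene was 17.9, 2.84 and 3.47 in the controls and 6.89, 2.14 and 3.95 after inoculation, so the groups overlapped. Control replicate 1, where the polygalacturonase gene had 6 counts, had the highest value of both ratios. The ratio of Medtr3g080810 to Medtr5g009970 was 4.55, 6.94 and 3.07 in the controls and 6.28, 12.01 and 10.6 after inoculation, and these groups overlapped too. The FPKM of the 6 genes summed to 31.4, 42.8 and 20.9 in the controls and to 98.8, 86.1 and 111 after inoculation. The share of the pectin lyase superfamily gene in that sum was 61.4%, 55.5% and 47.0% in the controls and 36.7%, 45.2% and 38.4% after inoculation, apart by a narrow margin. Ratios, sums and shares are made from the levels on which the genes were chosen, so they are a description.

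The study's list of changed genes holds 19 wall genes, the 6 included. Their descriptions name proteins that act on pectin, beta-glucans or cellulose, inhibit such enzymes or loosen the wall. The list was drawn from these libraries and so cannot stand as separate evidence, and a list free of that choice could not be built because the sources used here name no other wall gene by ID. Of the 19, 16 were kept by the expression filter, and 14 were higher and 1 was lower at both thresholds (2.03% and 2.73% of all tested genes). Their median log2 FC was 1.40, against -0.01 over all tested genes. With Benjamini-Hochberg adjustment 0 of the 16 passed in the quasi-likelihood test of edgeR, against 0.0177% of all tested genes. An unadjusted p under 0.05 was held by 15 of the 16, and by 1881 of the 16905 tested genes in either direction. With DESeq2 and with edgeR's exact test 6 passed, where 1.32% and 1.22% of genes passed as higher. Those were the 6 genes described above other than Medtr5g009970, and the pectin esterase gene Medtr6g088810. With limma-voom 0 passed, against 0.0118% of genes as higher.

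Genes grouped here as pectin esterases, enzymes that prepare pectin for cutting by polygalacturonases, made up 5 of the 19. Medtr6g088810 is annotated as a pectinesterase and the others as pectinesterase/pectinesterase inhibitor, and the activity of their products was not measured. The 4 tested were higher after inoculation at both thresholds (2.03% of all tested genes), with log2 FC between 1.06 and 2.26. Medtr6g088810 had 29, 17 and 12 counts in the controls and 33, 50 and 95 counts after inoculation. Medtr7g108890, the most abundant of them in CPM, had 75, 44 and 88 counts in the controls and 121, 170 and 109 counts after inoculation. In Medtr4g124520 the lowest inoculated library (18 counts) stood next to the highest control (17 counts). In Medtr8g042910 the groups overlapped, with 7, 0 and 26 counts against 75, 58 and 16 counts, and as in the expansin-B1-like gene inoculated replicate 3 was under control replicate 3. The fifth, Medtr1g088225, went the other way below the filter, with 18, 0 and 12 counts in the controls and 1, 0 and 0 counts after inoculation.

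The remaining wall genes of the list covered further polymers. The rhamnogalacturonate lyase B-like gene Medtr3g111380, of a family that cuts the branched backbone of pectin, had 19, 35 and 41 counts in the controls and 62, 76 and 62 counts after inoculation, with a log2 FC of 1.18 (standard error 0.35). The family 5 cellulase gene Medtr3g086450 had 2, 0 and 1 counts against 6, 18 and 8 counts, and was removed by the filter. The cellulose synthase-like gene Medtr3g450800 had 10, 19 and 17 counts against 27, 30 and 38 counts. In all 3 every inoculated library had more counts than every control, and in CPM 7.02% of all tested genes had groups apart in that direction. The 3 genes come from the list picked on this contrast, so nothing is read from this count. The list also holds 3 genes grouped here as beta-1,3-glucanases, enzymes that can act on callose and on the glucans of fungal walls. Medtr4g117390 of this group is annotated as an endo-1,3-1,4-beta-D-glucanase-like protein, and which glucan its product cuts was not measured. The 2 genes of the group that were tested were higher at both thresholds (2.03% of all tested genes), Medtr4g117390 with a log2 FC of 1.06 and Medtr5g091650 with 1.24. In Medtr5g091650 the groups overlapped, with 10, 28 and 12 counts in the controls and 22, 49 and 39 counts after inoculation. The third gene, Medtr4g076470, had 2, 0 and 0 counts against 1, 11 and 13 counts and was removed by the filter. The gene that was lower, Medtr2g022430, is annotated as an inhibitor of a xyloglucan-specific endoglucanase and had 37, 31 and 46 counts in the controls and 14, 16 and 20 counts after inoculation, with a log2 FC of -1.07 (standard error 0.36).

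**Figure D3:**
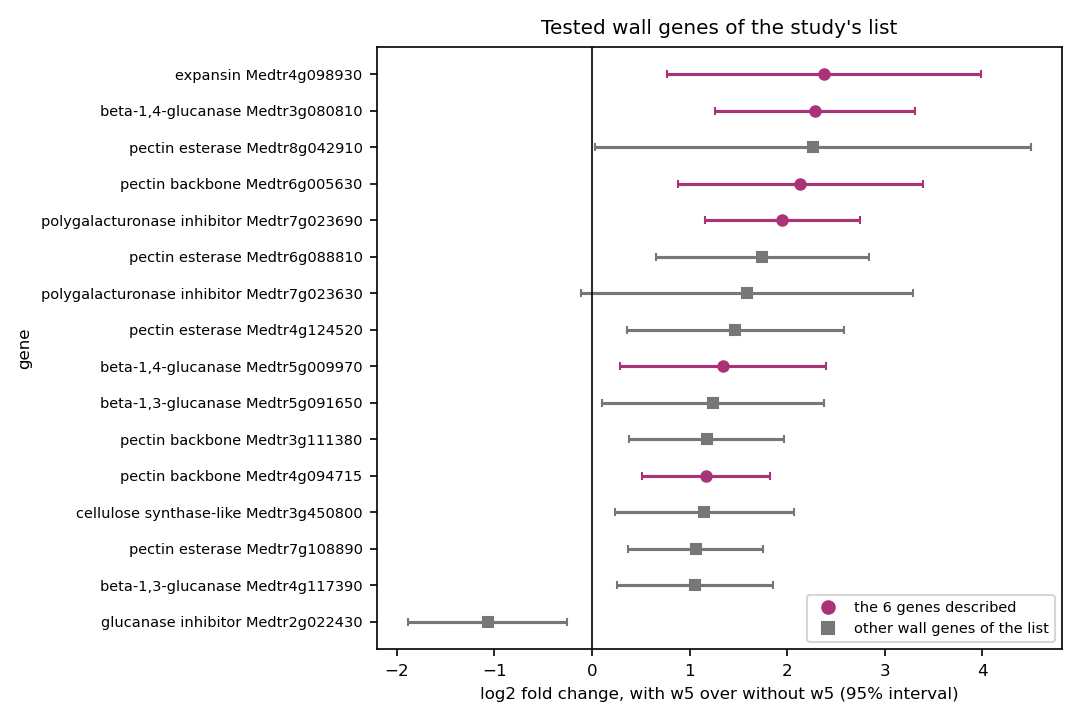
Log2 fold change (with w5 over without w5) and 95% interval from edgeR's quasi-likelihood fit for the 16 tested wall genes of the study's list, the 6 described genes as circles and the others as squares. The glucanase inhibitor gene Medtr2g022430 is the only one on the left of 0, and the interval of the polygalacturonase inhibitor gene Medtr7g023630 spans 0 (-0.11 to 3.29).

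A further polygalacturonase inhibitor gene of the list, Medtr7g023630, lies near Medtr7g023690 on chromosome 7, with 1 other gene, Medtr7g023670, between them in the order of IDs. Medtr7g023630 had 12, 29 and 1 counts in the controls and 41, 48 and 28 counts after inoculation. The log2 FC of 1.59 (standard error 0.74), with a 95% interval of -0.11 to 3.29, was not past the threshold for p. The gene between them, which the sources used here do not name, had 53, 170 and 31 counts against 160, 100 and 148 counts, with overlapping groups and a log2 FC of 0.80 (adjusted p = 0.694 from edgeR). In each of the 3 genes control replicate 3 was the lowest library. Close copies in such a cluster may share reads, and how such reads were counted is not stated.

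The 3 genes on each side of each of the 6 in the order of IDs were not chosen for their values and were tested with all genes. Of these 36 neighbours, 18 were kept by the filter and 8 had no count in any library. With edgeR 0 of the 18 passed an adjusted p of 0.05, as 3 of the 16905 tested genes did. An unadjusted p under 0.05 was held by 2 of the 18, and by 1881 of the 16905 tested genes in either direction. These 2 neighbours were lower after inoculation and past the fold threshold, and both flank Medtr3g080810. Of all tested genes, 2.73% were lower and 2.03% higher at both thresholds. Medtr3g080840, annotated as a D27 family protein, a family known for the first step of strigolactone synthesis, had 76, 42 and 23 counts in the controls and 12, 10 and 12 counts after inoculation. Its log2 FC was -1.90 (standard error 0.47, adjusted p = 0.144 from edgeR). Medtr3g080800 had 180, 182 and 101 counts against 59, 65 and 86 counts, with a log2 FC of -1.01 (standard error 0.28, adjusted p = 0.190 from edgeR). Medtr3g080830, which lies between Medtr3g080810 and the D27 gene, had a log2 FC of -0.02 and a 95% interval of -0.40 to 0.35. The 3 neighbours before Medtr4g094715, with 4139, 6724 and 7891 counts in all, had log2 FC of -0.28, -0.14 and 0.01.

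The genes most like each of the 6 were found by the root-mean-square difference of log2 CPM over the 6 libraries after centring each gene. This is a description, and genes that share the difference between the groups come out as alike. The gene nearest to the expansin-B1-like gene among all tested genes was Medtr7g405730, the sugar transporter gene that the study names MtSWEET15.3, at 0.45. It had 4, 4 and 9 counts in the controls and 62, 79 and 13 counts after inoculation, with the same low inoculated replicate 3. The RNA-binding protein gene Medtr5g064120 came next at 0.46, with 7, 9 and 23 counts against 60, 47 and 19 counts. The nearest to the inhibitor gene was a proton pump interactor gene (Medtr2g090525, 0.22), ahead of a GDSL-like lipase gene (Medtr8g022790, 0.23) and a PUB23-like ubiquitin ligase gene (Medtr4g051515, 0.24). The nearest to Medtr3g080810 was a receptor-like kinase gene (Medtr2g064940, 0.26), that to Medtr5g009970 an EF hand gene (Medtr1g041285, 0.21), and that to the polygalacturonase gene a LRP1-type zinc finger gene (Medtr8g076620, 0.21). The nearest to the pectin lyase superfamily gene with a name was a monoglyceride lipase gene (Medtr6g018490, 0.18). The closest pair within the 6 was the inhibitor gene and the pectin lyase superfamily gene, at 0.48, and the farthest was the expansin-B1-like gene and Medtr3g080810, at 1.27.

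The summed level of 37 tested photosystem and light-harvesting genes, taken from the study's list as markers of green tissue, moved with the groups as well. It lay between 4866 and 9099 CPM in the controls and between 2462 and 3273 CPM after inoculation. The list was drawn from these libraries, so these genes were picked on this difference and their counts are a description, not separate evidence. All 37 were lower at both thresholds (2.73% of all tested genes). In 34 the groups did not overlap, as in 9.04% of all tested genes in that direction, while 0 of the 39 listed were at 0 in every library. Their part in the levels of the wall genes was not tested.

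**Figure D4:**
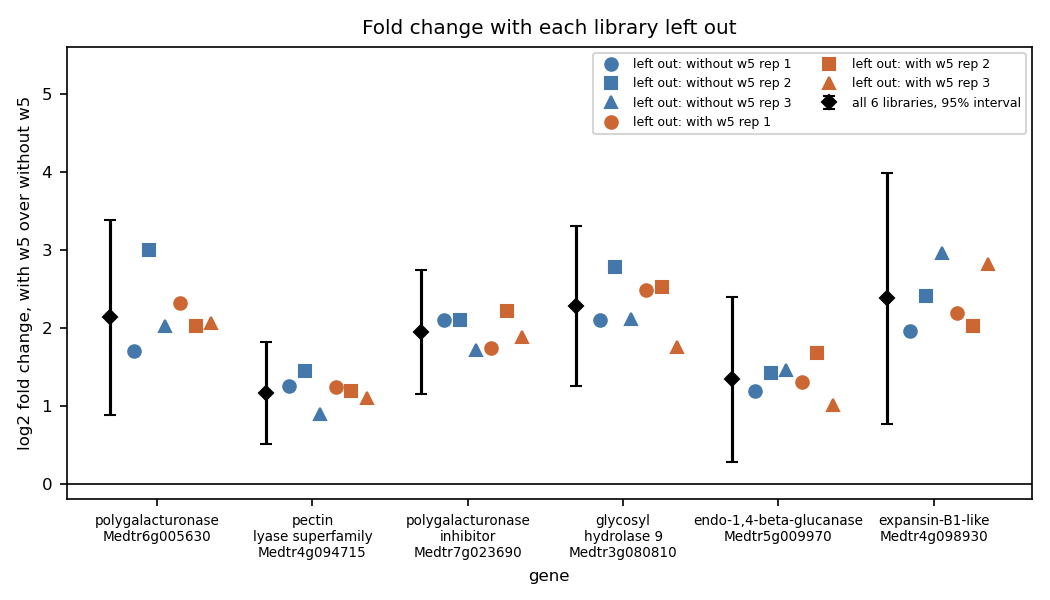
Log2 fold change (with w5 over without w5) of each wall gene from all 6 libraries, with its 95% interval (black), and with 1 library left out (blue for a library without w5, orange for one with w5, shape for the replicate). All values lie above 0, from 0.90 for the pectin lyase superfamily gene to 3.0 for the polygalacturonase gene.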

How the data were processed

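Root RNA of *M. truncatula* with and without w5 was sequenced as read pairs from a stranded total RNA kit, with 3 libraries in each group. The deposited read counts of each gene are the authors' whole numbers and are not normalized. The deposited FPKM were checked to follow from these counts, the gene length and the total of the library (largest relative difference 5.33e-15 over 131099 values), and they were used only for levels between genes. The submitters' processing notes list Bowtie (0.12.2) and mm8, a mouse build, although the paper refers the reads to *M. truncatula*. Neither the counter nor its strand setting nor the annotation release is stated. Libraries of a group differed beyond sampling noise (chi-square per gene from 9.29 to 29.4), and each was kept as a replicate.

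Genes were kept by filterByExpr and scaled by TMM (factors from 0.984 to 1.01). Groups were compared in edgeR 4.0.16 (R 4.3.3) with the robust quasi-likelihood test, without covariates, and Benjamini-Hochberg adjustment over all 16905 genes. Standard errors were the log2 fold change over the root of F. Log2 CPM used a prior count of 2. Alternatives were DESeq2 1.42.0 on the same genes, limma 3.58.1 (voom), edgeR's exact test, other scaling factors or filters, the replicate number as a block, and leaving out each library. The procedure was tested on simulated data.

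The genes, lists and tests were chosen with earlier results of these data known. Named are the 6 genes, the 3 wall genes with the lowest p past both thresholds, the neighbours of the same family, and the genes most alike in pattern. The other wall genes and neighbours were named after their values were seen. Protein families, product names, sequence motifs and root markers had been planned and were not analysed here, because the reference table used holds no sequences or product names. It matched 755 of the study's 790 listed genes by ID.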

Additional observations from a re-analysis of the deposited data

How the results depend on the processing

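The direction of all 6 log2 fold changes held in the 16 alternatives, and all 6 genes were past both thresholds in the 10 that left out no library. In those 10, between 341 and 519 of all genes were higher at both thresholds. The 6 genes were chosen as higher in these same libraries, so their direction and calls in other fits are a description and not separate evidence. The number of all genes at an adjusted p under 0.05 was 3 in the main test, 539 with DESeq2, 529 with edgeR's exact test, 195 with no filter and 176 with the replicate block, and between 1 and 103 when 1 library was left out. Of the 6 genes 5, 5, 1 and 1 passed in these 4 alternatives, and of the wall genes 6, 6, 1 and 1, the single gene with no filter and with the replicate block being Medtr7g023690 each time. The cause was not tested. With no filter, 519 genes were higher at both thresholds against 344, and 2 wall genes were lower against 1. Deviations from the group means correlated at 0.23, -0.05 and -0.03 between same-numbered libraries, while control replicate 2 and inoculated replicate 3 reached 0.24, so the numbers were not taken to pair the libraries. With 1 library left out, from 5 to 6 of the 6 genes passed both thresholds, from 10 to 13 wall genes were higher and from 0 to 2 lower. Of all genes, from 356 to 492 were higher and from 368 to 602 lower at both thresholds in these fits. The log2 fold change then ranged from 1.71 to 3.0 for Medtr6g005630, 0.90 to 1.44 for Medtr4g094715, 1.72 to 2.21 for Medtr7g023690, 1.75 to 2.77 for Medtr3g080810, 1.0 to 1.67 for Medtr5g009970 and 1.96 to 2.96 for Medtr4g098930. The fold of Medtr6g005630 was 1.82 times larger without control replicate 2. Matches of proteins at other identity minimums were not run, since no protein sequences were at hand. Medtr5g009970 and Medtr4g098930 had the fewest counts of the 6 genes, with 137 and 207 in all.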
